A study of Mus musculus with 15 samples.

Results

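Gene models named Gm with a number of 36000 or above were followed across the 5 groups of a mouse liver fibrosis experiment. They were the rows of the deposited expression table whose symbol is Gm followed by digits alone, with the number 36000 or higher, and there were 220 of them beside 3291 other rows, numbered 36172 to 49768. The livers came from male Swiss Webster mice, aged 4 to 5 weeks at the start, with 3 animals in each group. One group received carbon tetrachloride (CCl4) in corn oil by intraperitoneal injection 3 times a week for 5 weeks together with EVNorm (CCl4 + EVNorm), 1 received CCl4 alone, 1 received corn oil with EVNorm (oil + EVNorm), 1 received corn oil alone, and untreated littermates received nothing. EVNorm are the extracellular vesicles released by AML12, a line of mouse hepatocytes, and were injected 3 times a week during the final 2 weeks, between the CCl4 or oil days. Tissue was collected 36 h after the final CCl4 or oil dose. CCl4 is a toxin that hepatocytes convert to a reactive form, which leads to fibrosis on repeated exposure. Values are normalized counts, namely reads per gene divided by a size factor for the library. The table holds only genes that differed between CCl4 and oil in the authors' test, so the difference between CCl4 and oil livers is given here as a description.

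Gm symbols are placeholders for mouse gene models that have no other name. Many of the later ones belong to the class TEC, which annotators use for transcribed places that still need experimental evidence as genes, and others are long intergenic noncoding RNAs (lincRNAs), antisense RNAs, pseudogenes or sense-intronic RNAs, which lie within an intron of another gene on the same strand. Introns are copied into the primary transcript, removed by splicing and mostly degraded in the nucleus, so libraries made from total RNA after removal of ribosomal RNA, as here, hold intron reads that libraries selected for poly(A) tails largely lack. Reads of a model inside a same-strand intron cannot be told apart from reads of the unspliced host transcript.

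Most members were unproven, intronic and noncoding in the annotation. Of the 220 members, 166 were TEC, 19 lincRNA, 18 sense intronic, 5 antisense, 5 processed pseudogenes, 2 unprocessed pseudogenes, 2 bidirectional-promoter RNAs, 1 a processed transcript and 2 protein coding. In the GENCODE annotation of GRCm38, 170 members lay wholly inside an intron of a named gene on the same strand, 20 lay outside genes, 14 overlapped only other Gm or Rik models, 10 lay opposite a gene and 6 overlapped an exon on the same strand. A single exon made up 189 of the 220 models (85.9%), and the median exon length was 2548 bases. The share inside same-strand introns was 77.3% for the members, against 33.3% of the 192 Gm genes numbered below 36000, 27.6% of the 105 Rik genes (another class of provisional names) and 0.768% of the 2993 annotated rows of the rest of the table. By chromosome, 3, 1, 5 and 9 held 112 members, or 50.9%, against 23.5% of all other rows, and these 4 chromosomes also held 47.0% of the 3219 TEC models of the annotation. Around the number limit, the nearest models inside were Gm36172, a bidirectional-promoter RNA with a log2 fold change of -0.96 for CCl4 against oil, and Gm36283 at 3.68, and the nearest outside were Gm35986 at -3.20 and Gm35315 at -0.89.

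The 3′ ends of a few members named below are shown because the members differ in whether a polyadenylation signal stands there. The last 50 bases of the longest annotated transcript, 5′ to 3′ on the strand of the model, are printed with the usual polyadenylation signal AATAAA in capitals where the window holds it. The common variant ATTAAA was sought only where AATAAA was absent, and copies of it in the Gm48633 window stand in lower case.
Gm48633: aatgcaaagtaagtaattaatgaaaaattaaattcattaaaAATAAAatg
Gm36283: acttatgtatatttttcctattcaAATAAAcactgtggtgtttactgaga
Gm38398: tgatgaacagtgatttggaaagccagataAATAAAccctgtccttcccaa
Gm43953: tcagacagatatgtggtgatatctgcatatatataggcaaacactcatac
Gm45223: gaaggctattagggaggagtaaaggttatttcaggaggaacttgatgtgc
Gm44146: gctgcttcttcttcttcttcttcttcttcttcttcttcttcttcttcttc
Gm48633 (chr12:7911889-7950061, minus strand), Gm36283 (chr10:108417251-108453297, plus strand) and Gm38398 (chr9:83098224-83106330, plus strand) are lincRNAs with 2 to 6 exons. Gm43953 (chr6:101325339-101328205, minus strand), Gm45223 (chr7:90132492-90137629, plus strand) and Gm44146 (chr2:38757871-38758686, minus strand) are single-exon TEC models in introns of Pdzrn3, Picalm and Nr6a1. The end of Gm44146 is a run of ctt repeats. AATAAA was present in the last 50 bases of 40 members and ATTAAA without it in another 10, so that 22.7% held either hexamer on the model's strand. The share was 28.9% over all 3219 annotated TEC models, 20.3% over Gm genes numbered below 36000, 50.5% over Rik genes and 72.0% over the rest of the table. A hexamer is a match of letters in this window and no proof of a processed 3′ end, and its absence says nothing about how a transcript ends.

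Across the 15 libraries the members were of low abundance. The mean normalized count of a member over all libraries ran between 4.42 and 1368, with a median of 31.4, and 24 members averaged 100 or more. Per kb of exon the median was 12.8, against 98.7 for the rest of the table. The members took 0.275 to 0.323% of the table's reads in CCl4 + EVNorm livers, 0.249 to 0.321% in CCl4 livers, 0.142 to 0.189% in oil + EVNorm livers, 0.0962 to 0.105% in oil livers and 0.0724 to 0.104% in untreated livers. These recovered reads numbered 6106856 to 11055679 per library over the table's genes, which is not the depth of a whole library. The shares also depend on the total of the other rows. That normalized total was 5.671e+06 to 6.056e+06 in CCl4 + EVNorm livers and 8.996e+06 to 9.228e+06 in oil livers. The members' own normalized sum was 16700 to 18743 in CCl4 + EVNorm livers and 8702 to 9739 in oil livers. Members of a few reads per library carry counting error of their own besides the spread between mice.

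The median normalized count over the 170 intronic members was 42.7, 46.6 and 50.6 (lowest, middle and highest library) in CCl4 + EVNorm livers and 39.2, 40.8 and 44.3 in CCl4 livers. It was 21.9, 25.4 and 33.2 in oil + EVNorm livers, 12.7, 14.1 and 15.4 in oil livers, and 11.5, 11.8 and 14.4 in untreated livers. The oil + EVNorm libraries stood above all 6 oil and untreated libraries and below all 6 CCl4 and CCl4 + EVNorm libraries. Over the 50 members elsewhere the library medians were 33.5 to 40.8 in CCl4 + EVNorm, 41.9 to 47.2 in CCl4, 32.95 to 36.4 in oil + EVNorm, 26.1 to 36.5 in oil and 28.8 to 32.3 in untreated livers. Here the CCl4 libraries stood above all others, and the oil range overlapped those of CCl4 + EVNorm, oil + EVNorm and untreated livers. The direction of the step between oil and CCl4 is set by the choice of the table, in which 201 members were higher and 19 lower with CCl4. The oil + EVNorm, CCl4 + EVNorm and untreated libraries took no part in that choice.

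**Figure D1:**
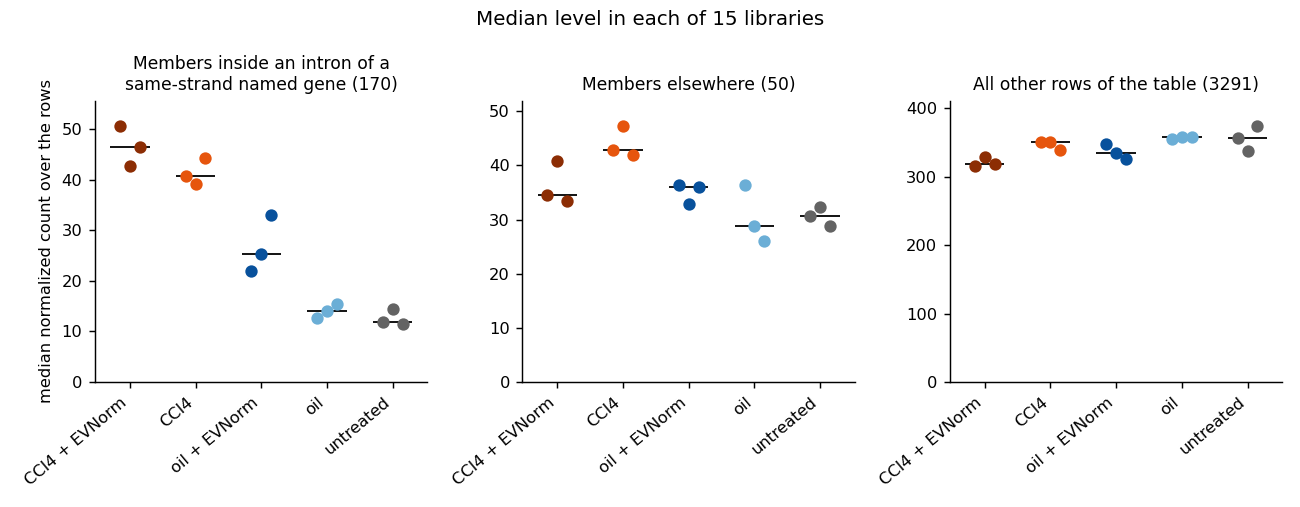
Median normalized count (y axis, from 0) in each of the 15 libraries (points, with a line at the middle library of each group) for the 170 members inside same-strand introns, the 50 members elsewhere and the 3291 other rows. The intronic members stand at 21.9 to 33.2 in oil + EVNorm livers, between the CCl4 groups (39.2 to 50.6) and the oil and untreated livers (11.5 to 15.4).

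Per kb of exon, Gm48633, a lincRNA on chromosome 12, had the highest level of the set at 1128 normalized counts per kb. It had 779, 779.9 and 633 normalized counts in CCl4 + EVNorm livers, 680.3, 633 and 578 in CCl4 livers, 1224, 986 and 919.7 in oil + EVNorm livers, 1375, 1224 and 1150 in oil livers, and 1589, 984 and 1282 in untreated livers. All 6 CCl4-exposed livers lay below all 9 others, and the log2 fold change of CCl4 + EVNorm against oil + EVNorm was -0.51 (standard error 0.16, adjusted p = 0.0223 from limma). Next per kb came Gm49431 (396), an antisense model on chromosome 15 opposite the pseudogene Cyp2d35-ps, whose reads may be shared with near-identical Cyp2d sequences. Then came the lincRNA Gm42047 (132), the TEC Gm43593 (119.7), inside Evi5, and the protein-coding model Gm45871 (108). By count alone Gm37494, a lincRNA of 7 exons on chromosome 7, was highest with an exon length of 16543 bases. It had 1914, 1512 and 1238 counts in CCl4 + EVNorm livers, 1679, 1697 and 1454.5 in CCl4, 1208, 1173 and 1488 in oil + EVNorm, 1355, 1106 and 1082 in oil and 1151, 1319 and 1138.5 in untreated livers, with overlapping ranges for CCl4 + EVNorm against oil + EVNorm (log2 fold change 0.25, adjusted p = 0.161 from limma). Of the 8 highest by count, 4 were intronic, namely Gm43593 and, at 50.8, 41.6 and 80.6 counts per kb, Gm45223 and Gm45222 (inside Picalm, a clathrin assembly gene) and Gm45457 (inside Sorbs2).

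In CCl4 + EVNorm livers 68 members were higher and 14 lower than in oil + EVNorm livers. This comparison asks for the effect of CCl4 in animals that all received vesicles, and none of its 6 libraries took part in choosing the table. At an adjusted p under 0.05 from limma, fitted on log2(normalized count + 1) over all rows of the table, these were 30.9% and 6.36% of the members, where 20.5% of all rows were called higher and 29.1% lower. The median log2 fold change over the 220 members was 0.75, against -0.12 over all rows, and 194 members had a value above 0. Over rows outside the set that were higher with CCl4 than oil, the median was 0.61, with 650 of 1510 called higher. Members of that kind had a median of 0.81 and 68 of 201 called higher, a smaller share than in those other rows. Libraries of the 2 groups did not overlap, in the higher direction, for 107 members (48.6%), as for 27.7% of all rows. Another scaling (TMM, computed from the rows of this table alone) moved this contrast by 0.13 on the log2 scale. With it 82 members were higher and 10 lower, and over all rows 903 were higher and 674 lower. The count of higher members dropped to 32 without CCl4 + EVNorm replicate 1, 34 without CCl4 + EVNorm replicate 3, 31 without oil + EVNorm replicate 1 and 33 without oil + EVNorm replicate 2, and that of lower members to 8, 7, 8 and 8.

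**Figure D2:**
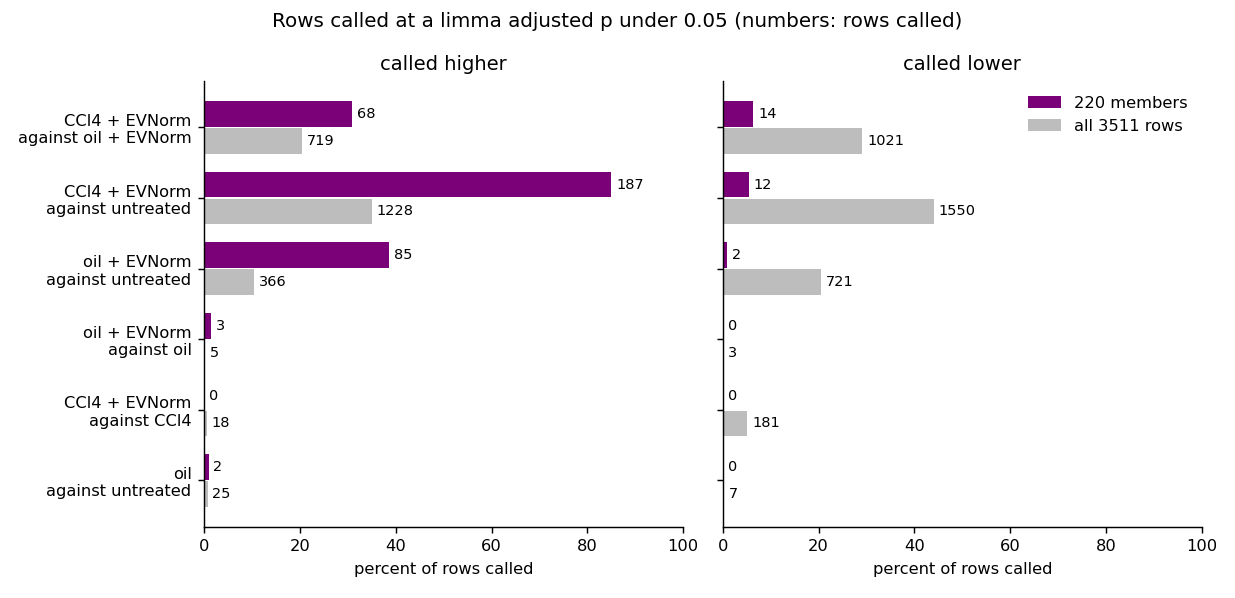
Percent of the 220 members (purple) and of all rows of the table (grey) called higher (left) and lower (right) at a limma adjusted p under 0.05 in 6 comparisons (x axes in percent, with the number of rows beside each bar). The members' share of higher calls is 30.9% against 20.5% of all rows for CCl4 + EVNorm against oil + EVNorm, and 38.6% against 10.4% for oil + EVNorm against untreated. Among rows higher with CCl4 than oil (not drawn), the first comparison called 68 of 201 members, a smaller share than the 650 of 1510 other rows. The second called 82 of 201 and 245 of 1510.

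Gm38283, a single-exon TEC model outside genes on chromosome 1, showed the largest rise of this comparison. It had 76.5, 32.1 and 131 counts in CCl4 + EVNorm livers and 13.4, 4.7 and 3.5 in oil + EVNorm livers (log2 fold change 3.28 with a standard error of 0.75, adjusted p = 0.00518 from limma). In CCl4 livers it had 21.2, 20 and 143 counts, so the high values rested on 1 of 3 animals there. Gm42047, a lincRNA of 4 exons on chromosome 8, had 636, 1336.5 and 1852 counts in CCl4 + EVNorm livers against 210.1, 94.1 and 199 in oil + EVNorm livers (2.87, standard error 0.78, adjusted p = 0.0112). It had 1483, 1798 and 3149 counts in CCl4 livers, against 229, 18.5 and 11.9 in oil livers, a log2 difference of 5.72 that is the largest in the set for that pair, with 1 oil animal far above the other 2. Gm36283, whose end is printed above, had 18.1, 19.6 and 29.4 counts in CCl4 + EVNorm livers against 4.9, 2.8 and 1.2 in oil + EVNorm livers (2.64, adjusted p = 0.00664), and 0 to 3.2 in the 6 oil and untreated livers. All 6 CCl4-exposed livers stood above all 9 others for Gm36283.

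Gm45941, a lincRNA outside genes on chromosome 12, had 84.7, 76.8 and 62.9 counts in CCl4 + EVNorm livers against 23.1, 12.2 and 15.1 in oil + EVNorm livers (log2 fold change 2.13, adjusted p = 0.00759 from limma). Among intronic members, Gm43953 lies in Pdzrn3, which encodes a ubiquitin ligase, and had 80.6, 77.6 and 100.5 counts in CCl4 + EVNorm livers against 27.9, 10.3 and 22.1 in oil + EVNorm livers (2.14, adjusted p = 0.00923). Gm49524 in Zfpm2, a cofactor gene of GATA factors, had 9.9, 11 and 13.9 counts in CCl4 + EVNorm livers against 0, 3.8 and 3.5 in oil + EVNorm livers (2.17, adjusted p = 0.0126). The groups do not overlap for any of these. Gm43052 in Med13l, a gene of the Mediator kinase module, had 26.3, 32.9 and 26.1 counts in CCl4 + EVNorm livers against 3.6, 0.9 and 22.1 in oil + EVNorm livers (2.32, adjusted p = 0.0138), with 1 oil + EVNorm animal near the CCl4 + EVNorm range.

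All 14 members that were lower in CCl4 + EVNorm than in oil + EVNorm livers lay outside same-strand introns, and 12 of them belonged to classes other than TEC. They were all among the 19 members lower with CCl4 than oil, of which only 1 was intronic and 4 were TEC. The choice of the table thus left little room for another outcome. Gm38398, a lincRNA of 3 exons on chromosome 9 whose end is printed above, had 19.7, 1.6 and 0 counts in CCl4 + EVNorm livers against 31.6, 67.7 and 109 in oil + EVNorm livers (log2 fold change -4.05 with a standard error of 0.86, adjusted p = 0.00356 from limma). Its 3 untreated livers had 91.3, 80.8 and 103.5 counts. Gm44992, a lincRNA of 17 exons on chromosome 7, had 24.7, 20.4 and 10.6 counts in CCl4 + EVNorm livers against 121, 55.5 and 166 in oil + EVNorm livers (-2.50, adjusted p = 0.0017). Gm45301 on chromosome 8 had 23.9, 23.5 and 22.1 counts in CCl4 + EVNorm livers against 76.5, 53.6 and 156 in oil + EVNorm livers (-1.85, adjusted p = 0.00387). The other falls named here, from -2.23 to -1.08, were in the TEC Gm42944, the pseudogenes Gm43158 (opposite Abca4) and Gm49331, the protein-coding Gm45871 and the lincRNA Gm47465, and reads of the pseudogenes may be shared with their parent genes. Among these, the call was lost in 9 of 15 alternatives for Gm43158, 6 of 15 for Gm47465 and 2 of 14 for Gm42944. Gm42944 had 4.9, 1.6 and 0 counts in CCl4 + EVNorm livers against 8.5, 7.5 and 18.6 in oil + EVNorm livers, and untreated livers were also low for it, at 4.3, 1.0 and 1.4.

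**Figure D3:**
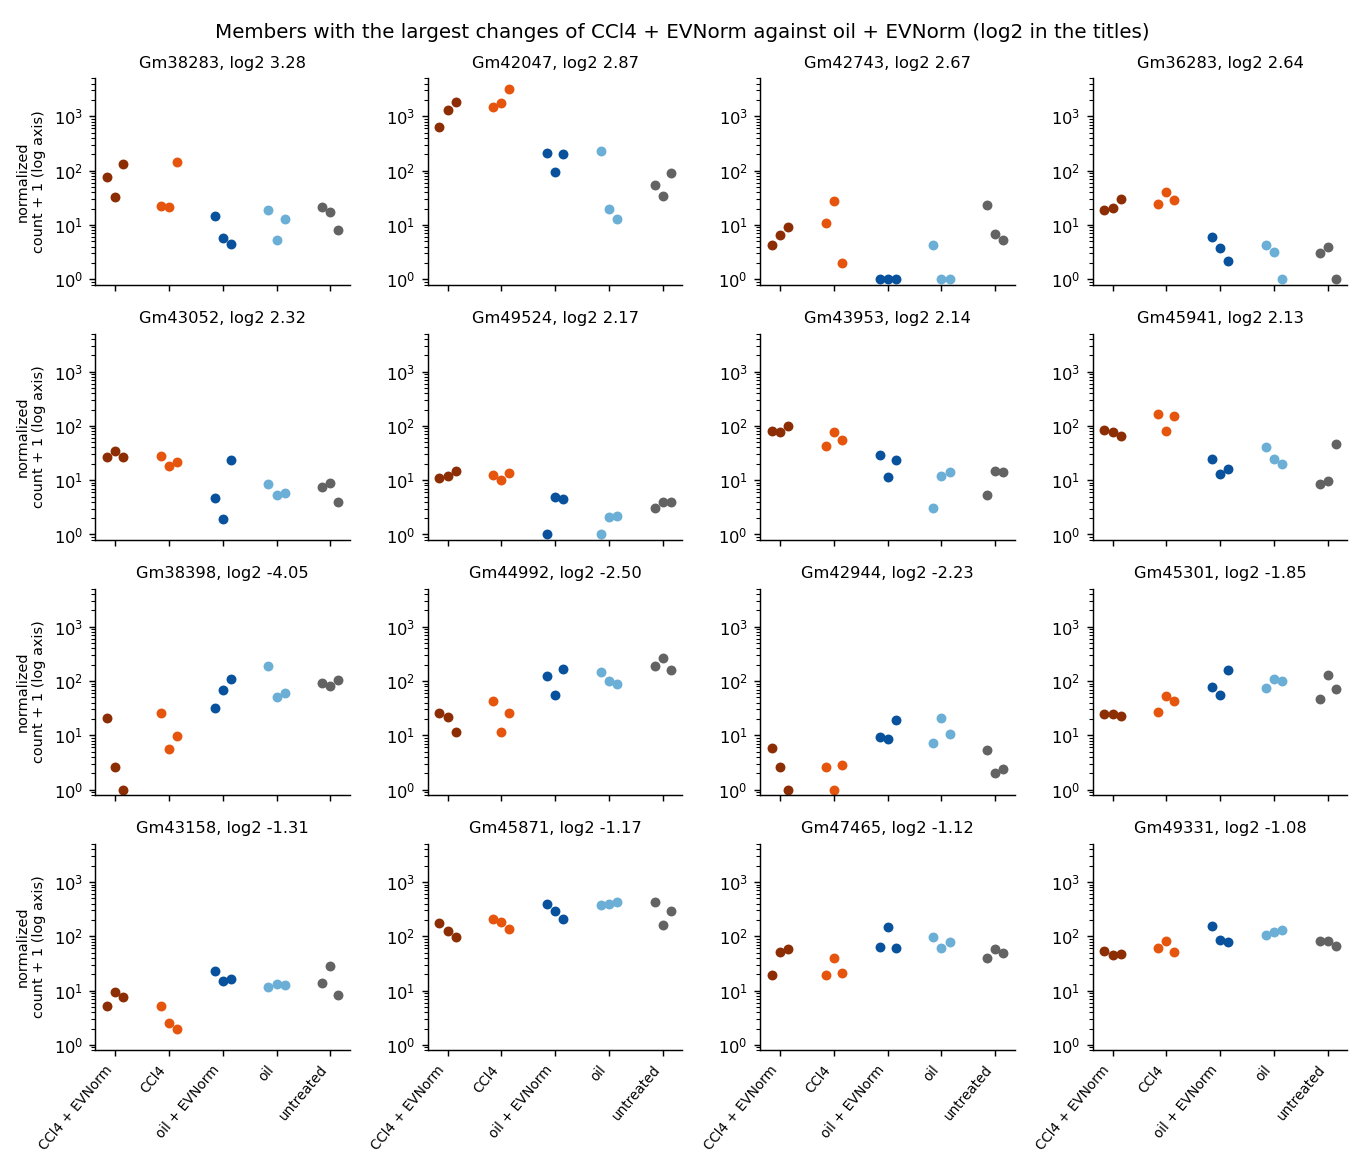
Normalized count plus 1 (log axis) in each of the 15 libraries for the 8 members with the largest called rises (top 2 rows) and the 8 with the largest called falls (bottom 2 rows) without overlap between the groups, for CCl4 + EVNorm against oil + EVNorm, with the log2 fold change in each title. For Gm38398 the CCl4 + EVNorm livers sit at 0 to 19.7 counts, below the 31.6 to 109 of oil + EVNorm livers.

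Members at 0 in every library of a group were few. Gm42743, a lincRNA of 2 exons that overlaps the histone gene Hist2h2bb, had 3.3, 5.5 and 8.2 counts in CCl4 + EVNorm livers and 0 in all 3 oil + EVNorm livers. Taking 3 reads over the group as the floor, its mean was at least 5.12-fold higher in CCl4 + EVNorm livers. With 22.6, 5.8 and 4.3 counts in untreated livers, its mean was at least 9.86-fold lower in oil + EVNorm than in untreated livers. Its fitted log2 value of 2.67 depends on the pseudocount and is no bound, and its call was lost in 5 of 14 alternatives. Gm44146, inside Nr6a1, had 3.3, 0.8 and 8.8 counts in CCl4 livers and 0 in all 3 oil livers, a mean at least 3.87-fold higher with CCl4. It had 11.5, 7.1 and 15.5 counts in CCl4 + EVNorm livers, 1.2, 1.9 and 4.7 in oil + EVNorm livers, and 11.5 in 1 untreated liver with 0 in the other 2.

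Oil + EVNorm livers had higher levels of many members than untreated livers, most of them intronic. Neither group took part in choosing the table. This comparison was added after oil + EVNorm had been compared with oil, and it joins the effects of oil and of vesicles. At an adjusted p under 0.05 from limma, 85 members (38.6%) were higher and 2 lower, where 10.4% of all rows were called higher and 20.5% lower. The median log2 fold change was 0.90 over the members, against -0.11 over all rows and 0.27 over the 1510 other rows that were higher with CCl4 than oil. The 2 groups did not overlap, in the higher direction, for 93 members (42.3%), as for 13.6% of all rows. Of the 85, 76 were intronic, in 70 host genes. With TMM scaling 91 members were higher and 2 lower, and over all rows 508 were higher and 463 lower. The count of higher members fell to 29 without oil + EVNorm replicate 3, whose library median of 33.7 over the members was the highest of its group (24.3 and 26.3 in the others), and to 36 without untreated replicate 1, while the median log2 value stayed between 0.73 and 1.04 when each of the 6 libraries was left out in turn. The 2 that fell were the lincRNAs Gm42743 and Gm44787, at fitted log2 values of -3.24 (no bound, since oil + EVNorm livers were at 0) and -1.66, and the count of fallers was 1 without untreated replicate 1.

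The largest value of this comparison was in Gm47405, a sense-intronic model in Chrm3, a muscarinic receptor gene. It had 294, 223 and 263 counts in CCl4 + EVNorm livers and 97.2, 78.3 and 171.5 in CCl4 livers. It had 99.6, 159 and 122 counts in oil + EVNorm livers, 66.5, 32.6 and 43.9 in oil livers, and 6.4, 13.5 and 1.4 in untreated livers. The log2 fold change was 4.30 (standard error 0.49, adjusted p = 0.000256 from limma) for oil + EVNorm against untreated and 2.88 (standard error 0.49, adjusted p = 0.00638) for oil against untreated. Every treated liver stood above every untreated one. Gm37465, inside Maml3, a Notch coactivator gene, came next and was picked out after its values were seen, with 19.4, 16.0 and 58.1 counts in oil + EVNorm livers against 0, 6.7 and 4.3 in untreated livers (2.99, adjusted p = 0.0103).

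Set against oil livers, oil + EVNorm livers gave 3 members called higher and 0 lower by limma, where 0.142% of all rows (5 rows) were called higher and 0.0854% lower. The oil libraries entered the choice of the table, unlike the untreated ones. Rows kept as higher with CCl4 thus lean toward low values in these oil libraries, and so toward a rise in this comparison. Among such rows the median log2 fold change was 0.84 over members (192 of 201 above 0) and 0.27 over other rows (1147 of 1510 above 0). The median log2 fold change over the members was 0.77, against -0.08 over all rows, 197 members had a value above 0, and 89 passed an unadjusted p of 0.05 in the higher direction and 1 in the lower, where 379 and 382 of all rows did. In the higher direction 104 members (47.3%) had groups that did not overlap, as had 13.4% of all rows. Gm47324, a processed pseudogene in Fchsd2, had 26.7, 30.1 and 30.2 counts in oil + EVNorm livers against 6.3, 8.7 and 3.6 in oil livers (log2 fold change 2.12 with a standard error of 0.37, adjusted p = 0.0491 from limma), and 11.8, 15.4 and 7.2 in untreated livers. Reads of this pseudogene may be shared with its parent gene. Gm37058 in Pid1 had 107, 190.0 and 195 counts in oil + EVNorm livers against 54.9, 41.3 and 52.3 in oil livers (1.67, adjusted p = 0.0491). The 3 calls lay just inside the threshold, and each call was lost in 8 to 10 of 16 alternatives. DESeq2 on the recovered reads called 22 members higher (77 of all rows) and edgeR 0 (0 of all rows). By limma, none was called without oil + EVNorm replicate 2 or 3 or without oil replicate 2 or 3, and 1 without oil replicate 1.

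In livers under CCl4 the addition of EVNorm moved no member past the threshold. Limma called 0 of 220 members higher and 0 lower in CCl4 + EVNorm against CCl4 livers, where 0.513% of all rows were higher and 5.16% lower. The CCl4 libraries entered the choice of the table, so rows kept as higher with CCl4 lean toward a fall here. Among such rows 0 of 201 members were called either way, while of 1510 other rows 4 were called higher and 158 lower. Their median log2 fold changes were 0.17 and -0.13. At an unadjusted p of 0.05 there were 12 higher and 2 lower members, beside 128 higher and 432 lower among all rows. EdgeR called 0 members (19 higher and 229 lower among all rows), and DESeq2 called 1 higher and 0 lower (40 and 266 among all rows). The median log2 fold change was 0.16 over the members and 0.19 over the intronic ones, against -0.06 over all rows, and stayed between 0.11 and 0.24 when each of the 6 libraries was left out. In the same livers all 7 measured genes of a list for dividing cells (of 8 listed) were lower with CCl4 + EVNorm, with a median log2 fold change of -2.40. With 3 animals a group, a change of 0.16 in a single member was not detectable.

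The difference between the 2 EVNorm effects, that under CCl4 minus that under oil, was called for 1 member, in the lower direction. Higher differences were called for 0 members and 0.057% of all rows, and lower ones for 0.455% of members and 1.91% of all rows. Both sets of libraries that chose the table enter this term. Rows kept as higher with CCl4 thus lean toward a negative difference. Among such rows, 1 of 201 members and 65 of 1510 other rows were called lower and 0 of either higher, with medians of -0.69 and -0.40. Gm37159, a TEC model in Cers6, a ceramide synthase gene, had 16.5, 19.6 and 22.9 counts in CCl4 + EVNorm livers against 39.2, 41.5 and 50.7 in CCl4 livers, and 13.4, 27.3 and 9.3 in oil + EVNorm livers against 6.3, 4.3 and 8.3 in oil livers. Its values with EVNorm overlapped between CCl4 and oil, and its difference was -2.30 on the log2 scale (standard error 0.55, adjusted p = 0.0435 from limma). With the replicate block 0 members were called, and the call of Gm37159 was lost in 15 of 22 alternatives.

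Oil injections alone changed few members. In oil against untreated livers 2 members were higher and 0 lower, where 0.712% of all rows were higher and 0.199% lower, and the median log2 fold change was 0.11. Besides Gm47405, Gm48478 was higher. It is a TEC model in Zfp809, whose protein silences retroviral sequences in mouse cells, and it had 151, 147 and 138 counts in oil livers against 41.9, 61.5 and 46.0 in untreated livers (log2 fold change 1.54 with a standard error of 0.23, adjusted p = 0.00223 from limma). It was also high with oil + EVNorm, at 176, 245 and 181, and had 69.4, 96.0 and 116 counts in CCl4 livers. The oil libraries entered the choice of the table, and Gm48478 was kept as lower with CCl4 than oil (log2 fold change -0.65). Rows of that direction lean toward high oil values, and so toward a rise against untreated livers. Gm47405 was kept as higher with CCl4 (1.24), where the lean is the other way. Zfp809 itself had 1911, 1655 and 1627 counts in oil livers against 1065, 1036 and 943 in untreated livers, a difference that did not pass the threshold (log2 fold change 0.77, adjusted p = 0.0719). Without untreated replicate 2 the count was 8 higher and 2 lower.

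Against untreated livers, both CCl4 groups were higher for most of the set. CCl4 + EVNorm livers, which did not enter the choice of the table, had 187 members higher (85%) and 12 lower, where 35% of all rows were higher and 44.1% lower. Most members were in the table as higher with CCl4 than oil, so rows of that direction are the closer base. Among these, 186 of 201 members and 1033 of 1510 other rows were called higher, with median log2 values of 1.79 and 0.92. CCl4 livers had 183 members higher and 10 lower, where 41.5% of all rows were higher and 45.7% lower. In CCl4 against oil livers, limma called 201 members higher and 19 lower, with 48.5% of all rows higher and 51.2% lower. That contrast chose the table from the same libraries, so its calls were set in advance. They are a description and no test, and lend no weight to the comparisons with untreated livers. The median log2 fold change over the members was 1.70 for CCl4 + EVNorm and 1.52 for CCl4 against untreated. The untreated libraries serve in each of these comparisons, which are therefore not independent of each other.

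Members inside introns and members elsewhere had different spreads of values, and also different directions in the contrast that chose the table. There 169 of the 170 intronic members were higher with CCl4 than oil, against 12 of 20 outside genes and 3 of 10 opposite a gene. For CCl4 + EVNorm against oil + EVNorm, 54 of the 170 intronic members were higher and 0 lower, in 47 host genes, with a median log2 fold change of 0.81 and 163 values above 0. Of the 50 members elsewhere, 14 were higher and 14 lower, with a median of 0.40. For oil + EVNorm against untreated, 76 intronic members were higher and 0 lower (median 1.01), against 9 higher and 2 lower elsewhere (median 0.11). The 20 members outside genes had medians of 0.44 and -0.04 in these 2 comparisons, and the 10 opposite a gene had -0.61 and 0.16. By exon number, the 189 single-exon models had 58 higher and 4 lower members for CCl4 + EVNorm against oil + EVNorm, and the 31 with more exons had 10 higher and 10 lower. Among intronic models under other names, the 29 Rik genes inside same-strand introns had medians of 0.74 and 1.03, all 29 with values above 0 in both comparisons, against -0.03 and -0.01 for the 76 Rik genes elsewhere. The 64 intronic Gm genes numbered below 36000 had medians of 0.72 and 0.46 with 12 higher and 8 lower genes in the first comparison. The 23 intronic rows among all other rows had medians of -0.25 (2 higher and 7 lower) and -0.29 (2 higher and 6 lower). Of these intronic rows, all 29 Rik genes, 45 of the 64 Gm genes and 10 of the 23 others were higher with CCl4 than oil. For the intronic members, place and the direction set by the choice of the table overlap almost wholly, so these medians do not separate the 2. For CCl4 + EVNorm against oil + EVNorm, every member called higher was also higher with CCl4 than oil. Of members in that direction, 54 of 169 intronic ones, 5 of 12 outside genes and 2 of 3 opposite a gene were called higher. So were 6 of 11 over Gm or Rik models only and 1 of 6 over an exon. For oil + EVNorm against untreated this split was not made. These counts and medians are a description, and the differences between places were not tested.

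**Figure D4:**
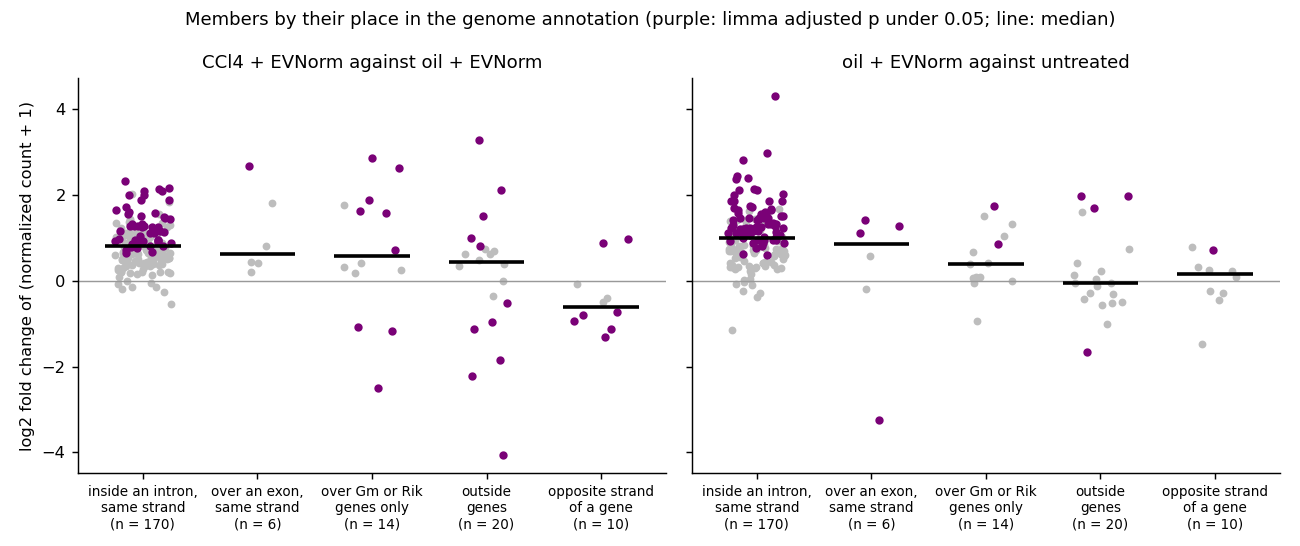
Log2 fold change of each of the 220 members (points, purple where the limma adjusted p is under 0.05) by place in the annotation, for CCl4 + EVNorm against oil + EVNorm (left) and oil + EVNorm against untreated (right), with a black line at the median. The 170 intronic members have medians of 0.81 and 1.01, and members outside genes scatter around medians of 0.44 and -0.04. Of the intronic members, 169 were higher with CCl4 than oil in the contrast that chose the table.

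The 170 intronic members lay in 133 host genes, 131 of them protein coding, and 24 hosts held 2 or more. Med13l held 5 members, and Magi3 (a scaffold protein gene), Mir99ahg (the host transcript of a microRNA cluster), Picalm and Tcf12 (a basic helix-loop-helix factor) held 4 each. Members of 1 host lie in the same transcription unit and are not independent, so counts over members and over member and host pairs include such hosts repeatedly. For CCl4 + EVNorm against oil + EVNorm their log2 values ran between 0.40 and 2.32 in Med13l, -0.14 and 0.50 in Magi3, 0.49 and 0.73 in Mir99ahg, 0.54 and 1.15 in Picalm and 0.44 and 1.05 in Tcf12. The 3 members in Pdzrn3 were all higher, at 1.72 to 2.14, as were 2 of 3 in Plxna2, a semaphorin receptor gene, at 1.33 and 1.52, and the third had 1.25 (adjusted p = 0.0553 from limma).

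For 43 intronic members the host was itself a row of the table, with 33 such hosts. In CCl4 + EVNorm against oil + EVNorm livers, 15 of these 43 members were higher and 0 lower, and of their 33 hosts 17 were higher and 2 lower. The member's log2 value was larger than its host's in 37 of 43, with medians of 0.98 for members and 0.49 for hosts. For oil + EVNorm against untreated it was larger in 37 of 43 as well, with medians of 1.12 and 0.15, and 16 members were higher and 0 lower where 8 hosts were higher and 3 lower. The 127 members whose host was not in the table had 39 higher members in the first comparison (median 0.76) and 60 in the second (median 0.97). A host's count comes mostly from exons of spliced RNA and reaches the table by its own test, so the 2 quantities differ in kind.

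Pairs are given for the 8 most abundant members with a host in the table. The most abundant, Gm48478, and its host Zfp809 had -0.53 (adjusted p = 0.0611 from limma) and -0.41 (adjusted p = 0.0792) for CCl4 + EVNorm against oil + EVNorm, and 1.99 (adjusted p = 0.000256) and 0.15 (adjusted p = 0.558) for oil + EVNorm against untreated. Gm43571 lies in Atxn2, the gene of an RNA-binding protein, and had 283, 137 and 122 counts in CCl4 + EVNorm livers against 42.5, 62.1 and 80.2 in oil + EVNorm livers (log2 fold change 1.48, adjusted p = 0.00449 from limma), while Atxn2 had 2528, 1959 and 2073 counts in CCl4 + EVNorm livers against 843, 965 and 2038 in oil + EVNorm livers (0.88, adjusted p = 0.0265). Gm37677 in Ppp1r12b, a myosin phosphatase subunit gene, and its host moved by nearly the same amount, 0.82 and 0.79. Gm42892 and its host Palmd had 0.81 and 0.68 in that comparison, but 1.15 (adjusted p = 0.0135) and -0.27 (adjusted p = 0.175) for oil + EVNorm against untreated. Gm42664 and Gm43300 both lie in Ptbp2, a splicing regulator gene, and had 0.90 (adjusted p = 0.0131) and 0.66 (adjusted p = 0.0735) where Ptbp2 had 0.22 (adjusted p = 0.201). Gm45294 in Fto, which encodes an RNA demethylase, had 0.54 (adjusted p = 0.0964) beside 0.49 for Fto (adjusted p = 0.0559).

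Member and host had values of the same sign in 38 of the 43 pairs for CCl4 + EVNorm against oil + EVNorm and in 30 of 43 for oil + EVNorm against untreated. In CCl4 against oil livers, the contrast that chose members and hosts alike, the sign was also the same in 38 pairs. The first of these counts was thus largely set by that choice. Gm44434 lies in Hibadh, an enzyme gene of valine breakdown, and had 142, 109.7 and 97.2 counts in CCl4 + EVNorm livers, 127, 108 and 103 in CCl4 livers, 94.7, 114 and 114 in oil + EVNorm livers, 67.6, 55.4 and 41.6 in oil livers and 31.2, 72.1 and 33.1 in untreated livers. Hibadh had 5243, 4675 and 4247 counts in CCl4 + EVNorm livers against 7893, 6955 and 6840 in oil + EVNorm livers (log2 fold change -0.62, adjusted p = 0.00251 from limma), where Gm44434 had 0.10. For oil + EVNorm against untreated, Gm44434 was higher (1.33, adjusted p = 0.00816) and Hibadh had -0.21 (adjusted p = 0.187). In that comparison Gm37973, inside Etfdh, was higher (1.26, adjusted p = 0.0323) where Etfdh, a gene of mitochondrial electron transfer, was lower (-0.47, adjusted p = 0.0416). The opposite case was Col1a2, a collagen gene, at 2.84 for CCl4 + EVNorm against oil + EVNorm (adjusted p = 0.000126), while Gm43921 inside it had 0.98 (adjusted p = 0.181). The pairs of this paragraph other than Gm44434 were chosen after their values were seen.

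**Figure D5:**
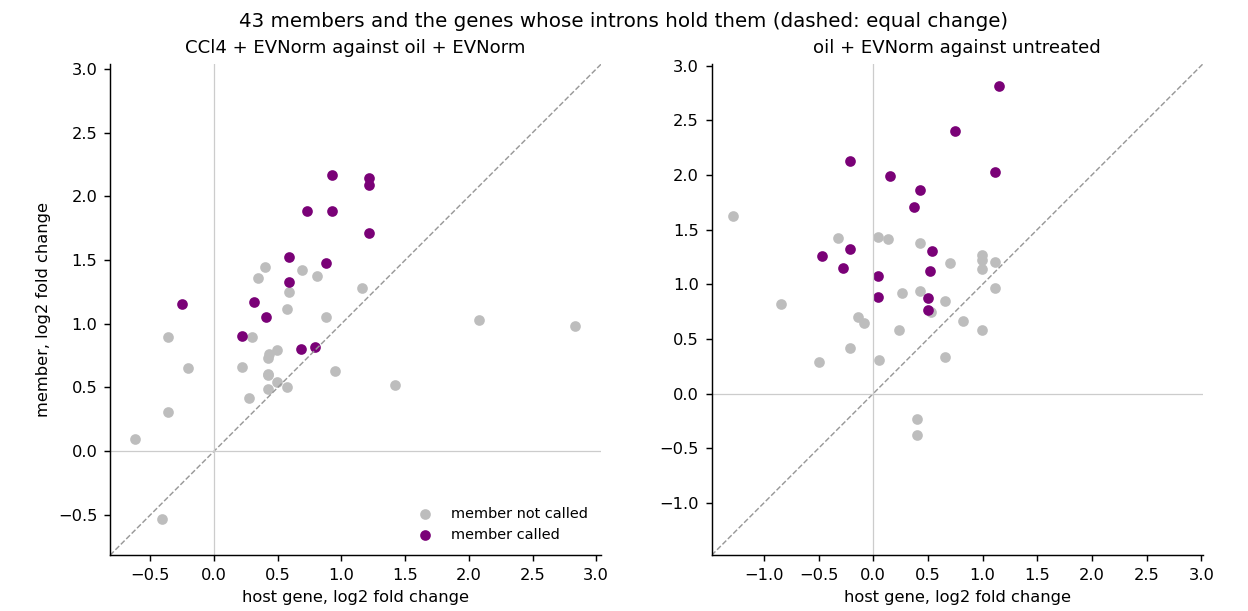
Log2 fold change of 43 intronic members (y axis) against that of the host gene (x axis) for CCl4 + EVNorm against oil + EVNorm (left) and oil + EVNorm against untreated (right), with a dashed line of equal change and purple points for called members. In both panels 37 of 43 points lie above the line, and members of the same host share an x value.

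Of 16 long noncoding RNAs of known name, 4 were in the table. Kcnq1ot1, a long unspliced nuclear RNA of an imprinted locus, had 3512, 3152 and 3607 counts in CCl4 + EVNorm livers, 2257, 2526 and 2180 in oil + EVNorm livers and 1126, 1755 and 933 in untreated livers. Its log2 fold change was 0.56 (adjusted p = 0.019 from limma) for CCl4 + EVNorm against oil + EVNorm and 0.92 (adjusted p = 0.00467) for oil + EVNorm against untreated. Airn, also an imprinted and mostly unspliced RNA, rose by 1.55 (adjusted p = 0.0104) in the first comparison and had 0.33 (adjusted p = 0.552) in the second, and H19 rose by 2.73 (adjusted p = 0.00263) in the first and had -1.23 (adjusted p = 0.0968) in the second. Gas5, a spliced snoRNA host, had -0.43 (adjusted p = 0.0544) in the first and -0.32 (adjusted p = 0.167) in the second.

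Marker genes of liver cell types differed between the groups as well, and in whole liver fewer cells of a type and less RNA per cell cannot be told apart. Of 18 hepatocyte markers 8 were in the table, and their summed count was 553488 to 658938 in CCl4 + EVNorm livers against 752166 to 903557 in oil + EVNorm livers, with 6 of the 8 lower. The 8 measured stellate and myofibroblast markers (of 15) summed to 11688 to 13692 in CCl4 + EVNorm livers against 5157 to 6131 in oil + EVNorm livers, and all 8 were higher. In oil + EVNorm against untreated livers the hepatocyte sum was 752166 to 903557 against 1100046 to 1657367, with 5 of 8 lower, and 6 of the 8 stellate markers were lower. Of the macrophage list 2 of 12 genes were measured and 0 were called in either comparison, as for 0 called of 7 dividing-cell genes, and the 2 measured cholangiocyte genes (of 7) were both higher with oil + EVNorm than untreated. The 2 measured endothelial genes (of 10) were both lower in that comparison, and 1 was lower with CCl4 + EVNorm than oil + EVNorm, as was 1 of the 2 measured lymphocyte genes (of 10). None of the 6 neutrophil markers was a row of the table. The 11 mitochondrial transcripts summed to 300552 to 327014 in CCl4 + EVNorm, 318611 to 415008 in oil + EVNorm and 351366 to 475385 in untreated livers. The part of these shifts in the members' values was not tested.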

How the data were processed

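RNA was taken from the livers of 15 mice, 3 in each group, with DNase treatment, removal of ribosomal RNA, a stranded library kit and adapters with unique molecular identifiers. Per the study's methods, the authors aligned reads with STAR 2.6.0c to GRCm38.p3, counted them per gene with featureCounts and the Gencode M19 annotation, and used DESeq2. Whether counting used strand, and whether duplicates were removed by identifier, is not given in the sources used here. The deposited signal values are gene counts that the authors divided by DESeq2 size factors and rounded to 1 decimal, for the 3511 genes that passed their test between CCl4 and oil. The table also holds the authors' fold changes, standard errors, test statistics and p-values for that contrast, which were not used.

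Whole reads were recovered from the steps between low values (within 0.05 of the deposited value for 99.7 to 100% of values). The main test was limma 3.58.1 with a mean-variance trend in R 4.3.3, on log2(value + 1) over all 15 libraries and 3511 rows, with Benjamini-Hochberg adjustment and a threshold of 0.05. Fold changes are on this scale and understate the change of low genes. Alternatives were edgeR 4.0.16 and DESeq2 1.42.0 on the recovered reads, TMM scaling, pseudocounts of 0.5 and 5, a mean of at least 10, no trend, only the groups compared, a replicate block and each replicate left out. The TMM factors came from the 3511 rows alone, all chosen as differing between CCl4 and oil, so they may differ from those of whole libraries. The pipeline was tested on simulated data. Figures were drawn with matplotlib 3.10.9.

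The groups follow the labels, and the animals were taken as separate mice from the study's account. Oil replicates 2 and 3 were closer to each other than other pairs (chi-square per row of 2.14, against 29.4 to 160 between other pairs of a group) but differed beyond sampling noise, and both were kept. Deviations from the group means correlated weakly between CCl4 + EVNorm and CCl4 libraries of the same number (0.23, 0.18 and 0.17). Between oil + EVNorm and oil they did not (0.06, -0.06 and 0.04). Libraries of unlike number reached 0.19 elsewhere (CCl4 + EVNorm replicate 1 with oil + EVNorm replicate 3). The labels give replicate numbers only, so whether these numbers pair the libraries is not known. The main fit has no block, and the result with a replicate block is given where it changes a call.

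Places, exons and transcript sequences came from GENCODE M21 of GRCm38, in which 3510 of 3511 identifiers and all 220 members were found. One row has no gene name and stayed in the fit under its identifier. The members and gene lists were chosen with earlier results of these data known. Named members were, by rule, those with the largest called changes without overlap between groups (mean of at least 5 in the higher group), the 8 highest by count and 5 highest per kb, those at 0 in a whole group, and the 8 highest with a host in the table. Others are said to be chosen after their values were seen. One member that the rule names is not reported here.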

Additional observations from a re-analysis of the deposited data

Results flagged for a closer look

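Gm37159, the TEC model in an intron of Cers6, is listed because the EVNorm effect differed between CCl4 and oil livers in a test of the difference itself, at -2.30 on the log2 scale (standard error 0.55, adjusted p = 0.0435 from limma). The effect was -1.12 under CCl4 (adjusted p = 0.125) and 1.18 under oil (adjusted p = 0.158), neither past the threshold. Over 22 alternatives the value ran between -2.62 and -1.85 and the adjusted p between 0.00876 and 0.113, and the call was lost in 15 of them. The CCl4 and oil libraries of this test also chose the table. Rows kept as higher with CCl4, as Gm37159 was, thus lean toward negative values in it.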

How the results depend on the processing

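For CCl4 + EVNorm against CCl4, the fit of only these groups called 2 members higher and 1 lower and DESeq2 called 1 higher, and leaving out each replicate gave 0 to 1 lower. For oil + EVNorm against oil, the count of higher members was 1 with a pseudocount of 5, 0 with only these groups, 0 with edgeR, 22 with DESeq2, 0 with oil replicates 2 and 3 as 1 library and 0 to 3 with each replicate left out, and with untreated in place of oil (chosen after seeing the data) 85 were higher and 2 lower. For CCl4 + EVNorm against oil + EVNorm, leaving out each replicate gave 31 to 79 higher and 7 to 12 lower members, and untreated in place of oil + EVNorm (also chosen after seeing the data) gave 187 higher. For oil against untreated, 4 were higher with no trend, 1 with only these groups and 2 to 8 with each replicate left out, and 1 was lower with a pseudocount of 0.5 or with DESeq2 and 0 to 2 with each replicate left out. The count of lower members for the difference between the EVNorm effects was 0 with a pseudocount of 0.5, a mean of at least 10 or the merged oil replicates, 2 with no trend or DESeq2, 3 with only the groups compared and 0 to 1 with each replicate left out. With the replicate block it was 0, and the block changed no other count by more than 1.5 times (72 higher and 13 lower for CCl4 + EVNorm against oil + EVNorm, 3 higher for oil + EVNorm against oil). The causes were not tested. Over the 22 results for single named members, 272 alternative values kept direction and call, 67 kept the direction without passing the threshold, and 0 reversed. Members of a few reads per library are limited by depth.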
